A study of Mus musculus with 2 samples.

Results

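Adrenomedullin is a secreted vasoactive peptide, and its messenger, Adm, was followed here together with the messengers of the parts that form its receptors. The 6 genes were Adm, Calcrl, Ramp1, Ramp2, Ramp3 and Calca, taken by symbol from the 32285 genes of the count tables. They were chosen by their summed UMIs and their numbers of expressing cells per class in these same libraries, so the levels and ratios that follow are descriptions and carry no test.

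Adrenomedullin acts on endothelium through the calcitonin receptor-like receptor, a G protein-coupled receptor encoded by Calcrl that reaches the cell surface only with a receptor activity-modifying protein (RAMP). Paired with RAMP2 or RAMP3 it binds adrenomedullin, and paired with RAMP1 it binds calcitonin gene-related peptide (CGRP), which Calca encodes together with calcitonin through alternative splicing. Adm is a known target of hypoxia-inducible factor (HIF), and the peptide is known for relaxing vessels and for keeping blood and lymphatic endothelium tight.

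Single-cell RNA-Seq was performed on kidneys taken 14 days after unilateral ischemia-reperfusion injury (IRI), in which the renal artery was clamped for 25 minutes at 37 °C in male mice of 8 to 10 weeks. The mutant (PHDTiEC) carried Cdh5-CreERT2 together with Phd1f/f, Phd2f/f and Phd3f/f, so that a tamoxifen-inducible Cre under the endothelial Cdh5(PAC) promoter is meant to delete the 3 oxygen-sensing prolyl hydroxylases in endothelium. The control was a littermate labelled Cre-, for which the labels name no floxed allele. Both mice received 4 intraperitoneal doses of 3 mg tamoxifen every other day from day 1 after injury, so neither library shows kidney without injury or without tamoxifen. Each genotype was 1 mouse and 1 library, so genotype, animal and library cannot be told apart.

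After barcodes were kept for 500 to 100000 unique molecular identifiers (UMIs), at least 200 genes and at most 50% mitochondrial UMIs, 8548 barcodes of the Cre- library and 9309 of the library labelled PHDTiEC remained, with medians of 7500 and 7898 UMIs. The libraries shared 28 barcode sequences, of which 1 was endothelial-like in each. The 10 endothelial markers were each detected in at least 10% of the endothelial-like barcodes in both libraries, 407 and 551 in number. In all that follows, paired values give the Cre- library first and the library labelled PHDTiEC second. Of the floxed genes, Egln1 (PHD2) stood at 67.5 and 187.4 CPM in endothelial-like cells, CPM being UMIs per 1000000 UMIs of the class, Egln2 (PHD1) at 36.8 and 38.5, and Egln3 (PHD3) at 24.7 and 146.2. None was lower under the PHDTiEC label. UMIs were read from the 3′ end of messengers and the labels do not say which exons are floxed, so these counts do not check the deletion, and the wording "the library labelled PHDTiEC" is kept for that reason.

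Levels are given as UMIs summed over a cell class and as CPM of that class. The ratio is log2 of the CPM in the library labelled PHDTiEC over the CPM in the Cre- library. Brackets hold 95% intervals, exact Poisson for levels, exact binomial for shares and for the split of UMIs between libraries. They cover counting error only and say nothing of variation between mice. A gene is said to be past the fold rule where it had at least 10 UMIs over both libraries and a ratio of at least 1 in size. Counts from 3′ ends are not divided by gene length, and capture may differ between genes, so levels of different genes are compared only as shares of UMIs.

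Adm lies on the forward strand of chromosome 7 at chr7:110627661-110629820 (GRCm38, GENCODE vM21). Its identifier is ENSMUSG00000030790. Its upstream sequence is printed because the gene is a known HIF target and had the largest ratio of the 6 in endothelial-like cells. The window is the RefSeq promoter of GRCm38.p6, chr7:110627407-110627656, forward strand, written 5′ to 3′, with no base in an annotated exon. Capitals mark CACGC, which reads GCGTG on the other strand.

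Adm, 250 bases before the start: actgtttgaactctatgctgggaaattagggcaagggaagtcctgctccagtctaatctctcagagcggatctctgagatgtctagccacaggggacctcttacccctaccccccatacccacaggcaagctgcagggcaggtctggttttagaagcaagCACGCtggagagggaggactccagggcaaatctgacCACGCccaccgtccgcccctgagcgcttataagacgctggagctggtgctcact

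The core letters searched were ACGTG and GCGTG, on both strands, matches that overlap being counted apiece where they start at different bases. The Adm window held 2 GCGTG matches, starting 90 and 54 bases before the start site, and 0 ACGTG matches. Of 32851 RefSeq windows of the same length, 9250 (28.2%) held GCGTG, 5444 (16.6%) held ACGTG and 5495 (16.7%) held at least 2 matches of either. Ramp3 also held 2 GCGTG matches, while Calcrl, Ramp1 and Calca held 0 of either word in their windows. A match says that the letters are present and nothing about binding.

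Adm, the ligand, was higher in endothelial-like cells under the PHDTiEC label. The Cre- library gave 51 UMIs, 10.1 CPM (7.51 to 13.3), and the library labelled PHDTiEC gave 551, 88.4 CPM (81.2 to 96.1). The ratio was 3.13 on the log2 scale (2.72 to 3.58), or 8.76-fold (6.57 to 11.9). Adm was 1 of 6 members past the fold rule upward in these cells, where 3.44% of 13954 genes were past it upward and 3.25% downward, and it stood 45th from the top in the order of ratios. No member was past it downward.

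Adm was also spread over more cells. At least 1 Adm UMI was found in 38 of 407 endothelial-like barcodes (9.34%, 6.69 to 12.6) and in 180 of 551 (32.7%, 28.8 to 36.8). Macrophage-like barcodes, taken as a class of low Adm, had an Adm UMI in 0.222% and 0.439%, at median depths of 7134 and 7532.5 UMIs against 8042 and 7703 in endothelial-like cells. With every barcode thinned to 1000 UMIs, which left out 18 and 36 shallower endothelial-like barcodes, Adm was found in 3 of 389 (0.771%) and 47 of 515 (9.13%), against 0 of 2241 and 1 of 2492 macrophage-like barcodes.

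Barcodes with many Adm UMIs were nearly all in the library labelled PHDTiEC. In the Cre- library 30 barcodes held 1 UMI, 7 held 2 to 4 and 1 held 5 or more, the most being 6. In the library labelled PHDTiEC these numbers were 67, 80 and 33, and the most was 15. No single barcode therefore carried the endothelial-like level. Barcodes with under 100 UMIs, taken as free RNA, had 8.29 and 9.86 CPM of Adm, close to the Cre- endothelial-like level. At the estimated 23.2% and 17.7% of free RNA in these cells, 9.71 of the 51 and 10.9 of the 551 Adm UMIs would come from it. Free RNA is only part of a barcode. A class level near or below a free RNA level, here and below, therefore does not make its UMIs free RNA.

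**Figure D1:**
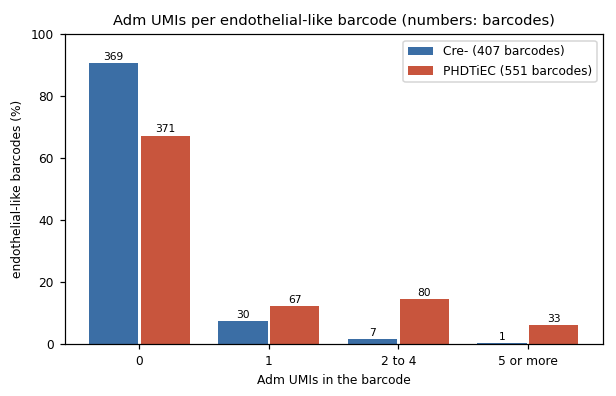
Share of endothelial-like barcodes (y axis, percent) by the number of Adm UMIs per barcode (x axis), for the Cre- mouse and for the library labelled PHDTiEC, 1 mouse each. Barcodes with 0 Adm UMIs were 90.7% and 67.3%, and those with 5 or more were 0.246% and 5.99%.

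The endothelial-like cells comprised medullary renal endothelial cell-like (mREC-like) barcodes, cortical ones (cREC-like) and cluster 23, which carried endothelial and mural markers together. Among mREC-like barcodes Adm gave 7 UMIs over 182 (4.01 CPM) and 290 UMIs over 228 (114 CPM). The ratio was 4.83 (3.77 to 6.16), and Adm-positive barcodes were 3.85% and 35.5%. The Cre- level rested on 7 UMIs and lay below the Cre- free RNA level of 8.29 CPM. Estimated free RNA was 13.5% and 4.60%, from which 1.95 of the 7 and 1.15 of the 290 Adm UMIs would come. In this class 4.27% of genes were past the fold rule upward and 4.04% downward, and Adm was 1 member past it upward and Calca 1 downward. The Adm ratio stood 26th of 11654. The 7 mREC markers summed to 2804 and 2852 CPM in this class and the 6 cREC markers to 1301 and 2039 CPM. Without subcluster 5, described below, 47 of the 290 Adm UMIs remained.

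Among cREC-like barcodes Adm gave 17 UMIs (15.5 CPM) over 133 barcodes and 124 UMIs (99.0 CPM) over 212, a ratio of 2.68 (1.94 to 3.50). Adm and Ramp1 were the 2 members past the fold rule upward, where 4.39% of genes were past it upward and 7.81% downward. Markers of other cells differed between the libraries in this class. The 6 genes of the thick ascending limb (TAL) list summed to 1369 and 251 CPM, with 1 of 6 in at least 10% of barcodes in each and none at 0, and the 4 hemoglobin genes to 1358 and 2683 CPM. The 8 macrophage markers summed to 724 and 1384 CPM, with 5 and 4 of them in at least 10% of barcodes. Estimated free RNA was 58.7% and 16.6%, from which 5.34 of 17 and 2.05 of 124 Adm UMIs would come. The part of these differences in the ratio was not tested.

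In cluster 23 Adm gave 27 UMIs (12.2 CPM) over 92 barcodes and 137 (56.1 CPM) over 111, a ratio of 2.20 (1.60 to 2.85). Adm was the 1 member past the fold rule upward and 0 were past it downward, beside 5.28% and 3.38% of genes. The class held all 7 pericyte or smooth muscle markers, at 7152 and 8359 CPM summed, beside the 10 endothelial ones at 4639 and 3987 CPM. The smallest of the 3 ratios was thus that of the mixed cluster, and its interval overlapped that of cREC-like cells.

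Outside endothelial-like cells Adm was alike in sum. It gave 863 UMIs (7.62 CPM) and 943 UMIs (7.46 CPM), a ratio of -0.03 (-0.16 to 0.10), and 0 of 6 members were past the fold rule, where 2.05% of genes were past it upward and 2.53% downward. These levels lay at or below the free RNA levels given above. The collecting system was the largest source outside endothelium by UMIs. Intercalated cell-like barcodes with collecting duct (CD) markers had 310 and 277 UMIs, 17.6 and 13.7 CPM, with a ratio of -0.36 (-0.60 to -0.12). CD-like cells had 141 and 126 UMIs, 19.4 and 15.8 CPM. Endothelial-like cells held 5.58% and 36.9% of all kept Adm UMIs, while the intercalated cell-like class with CD markers held 33.9% and 18.5%.

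**Figure D2:**
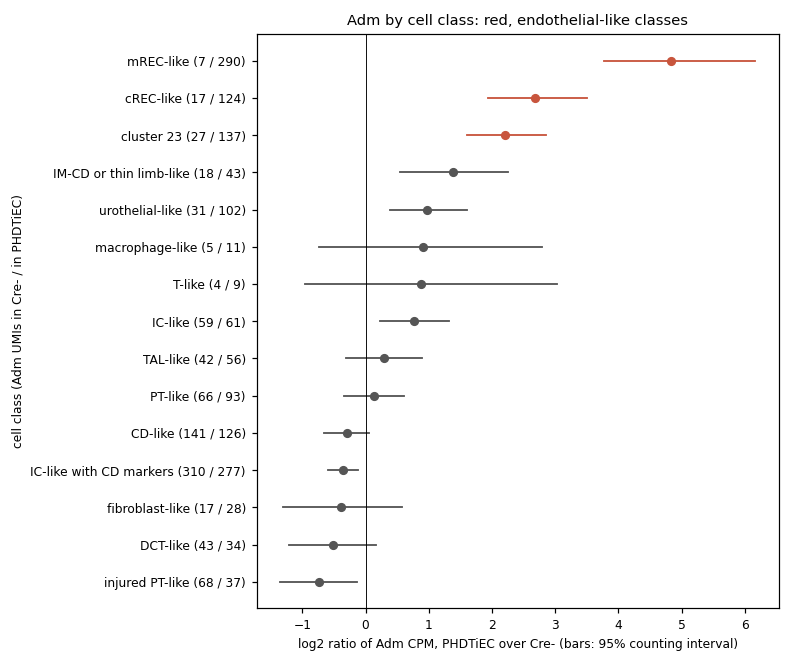
Log2 ratio of Adm CPM, the library labelled PHDTiEC over the Cre- library (x axis), by cell class (y axis), with 95% intervals that cover counting error only and 1 mouse per genotype. The mREC-like ratio of 4.83 lies farthest to the right. The pooled ratio outside endothelial-like cells, -0.03, is not drawn.

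Urothelial-like cells, the lining of the urinary tract, had the highest Adm level of the 27 classes but were few. Adm gave 31 UMIs over 24 barcodes (66.2 CPM) and 102 over 33 (130.6 CPM), a ratio of 0.98 (0.39 to 1.61). The highest barcode held 45.2% and 12.7% of them, and without that barcode of each library the ratio was 1.59 (0.83 to 2.43). In intercalated cell-like barcodes Adm gave 59 and 61 UMIs, a ratio of 0.77 (0.23 to 1.31), but 1 barcode held 27 of the 61, and without the highest barcode of each library the ratio was 0.01 (-0.65 to 0.65). Inner medullary collecting duct (IM-CD) or thin limb-like cells had 18 and 43 UMIs, 3.63 and 9.44 CPM, with a ratio of 1.38 (0.55 to 2.26) and 30.2% of the 43 in 1 barcode. The intercalated cell-like value thus rested on 1 barcode, whereas the urothelial-like ratio was larger without the highest barcodes.

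Tubular and stromal classes were low in Adm. Injured proximal tubule (PT)-like cells gave 68 and 37 UMIs, 7.99 and 4.82 CPM, a ratio of -0.73 (-1.35 to -0.13). PT-like cells gave 66 and 93 UMIs (ratio 0.13), TAL-like cells 42 and 56 (0.29), distal convoluted tubule (DCT)-like cells 43 and 34 (-0.51), and fibroblast-like cells 17 and 28 (-0.39). The levels of the PT-like, injured PT-like, TAL-like and DCT-like classes were below free RNA in both libraries. With both libraries summed the order of Adm levels was urothelial-like, mREC-like, cREC-like and cluster 23. The intervals of mREC-like and cREC-like cells overlapped, and those of the other neighbours among these 4 did not. The order depends on the library, since among Cre- cells the intercalated cell-like (20.5 CPM) and CD-like (19.4 CPM) classes lay above all endothelial-like classes.

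**Figure D3:**
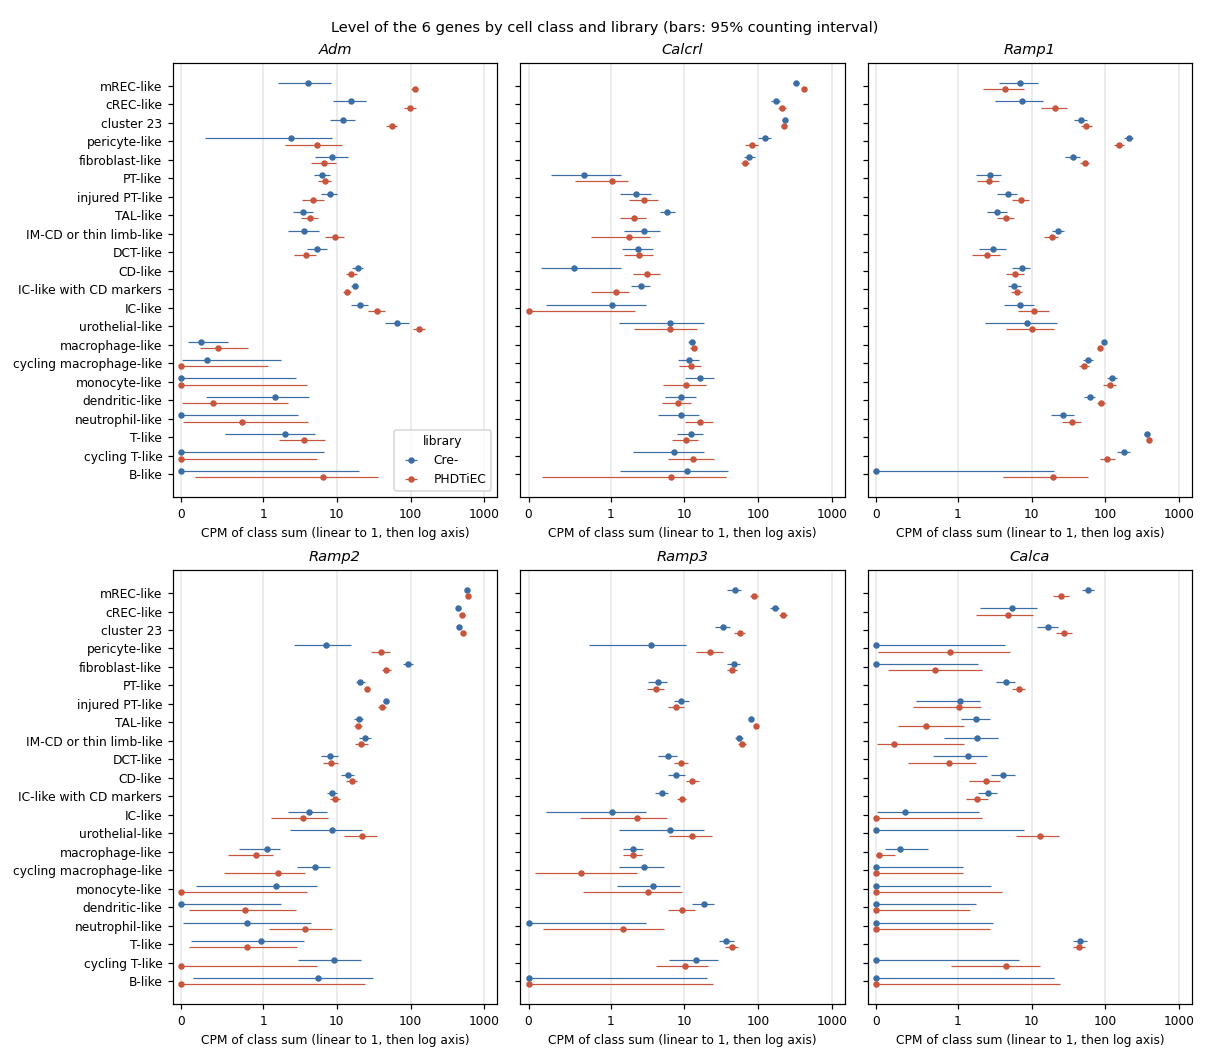
CPM of the 6 members in the cell classes of both libraries, 1 mouse each. Ramp2 and Calcrl peak in the endothelial-like classes, Ramp1 in T-like cells and Ramp3 in endothelial-like and TAL-like cells, while Adm is high in mREC-like cells only under the PHDTiEC label (114 against 4.01 CPM).

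Reclustering the endothelial-like barcodes with the 6 members left out gave 12 subclusters. Subcluster 5, led by Mgarp and by Pgf, a growth factor of the VEGF family, held 0 Cre- barcodes and 78 of the library labelled PHDTiEC. It carried 288 Adm UMIs, 232.7 CPM, with a UMI in 65 of 78 barcodes (83.3%). Thus 14.2% of the endothelial-like barcodes held 52.3% of their Adm UMIs. Of the 78 barcodes, 70 were mREC-like, 6 cREC-like and 2 of cluster 23. The cREC markers nevertheless summed to 3338 CPM in subcluster 5 and the mREC markers to 1957 CPM. Whether these barcodes are medullary or cortical was not tested. The HIF target list, of 55 genes, summed to 17412 CPM in subcluster 5, and to between 3350.5 and 10404 CPM in the other subclusters of either library. Genes of that list, Pgf among them, were not left out of this clustering. The high sum is therefore not independent of how subcluster 5 was formed.

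Adm was higher under the PHDTiEC label in subclusters 0, 2, 3, 6, 8 and 10 as well. Subcluster 0, led by Il33 and Aplnr, had 6 and 45 UMIs (16.01 and 77.7 CPM), a ratio of 2.28. Subcluster 2 had 16 and 69 UMIs (13.6 and 89.0 CPM), a ratio of 2.71, subcluster 3 had 2 and 32, a ratio of 3.43, and subcluster 6 had 10 and 61, a ratio of 2.52. Subcluster 8 had 6 and 10, subcluster 10 had 2 and 10, subcluster 7 had 0 and 8, and subcluster 9 had 0 and 11 Adm UMIs. Subcluster 11, of 7 and 15 barcodes, had 8 and 16 UMIs and a ratio of -0.23, from which no direction is read. The PT markers summed to 2138 CPM in subcluster 11. Subcluster 4 had 1 and 1 Adm UMI, and subcluster 1, of 51 and 42 barcodes, had 0 and 0. Leaving out subcluster 5 removes barcodes of the library labelled PHDTiEC and none of the Cre- library, so the values without it are descriptions over unlike sets of cells. Without it the endothelial-like level of that library was 52.7 CPM in 24.3% of barcodes, and the ratio was 2.38 (1.95 to 2.85). The mREC-like ratio was then 3.08 (1.92 to 4.47) at 33.9 CPM.

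**Figure D4:**
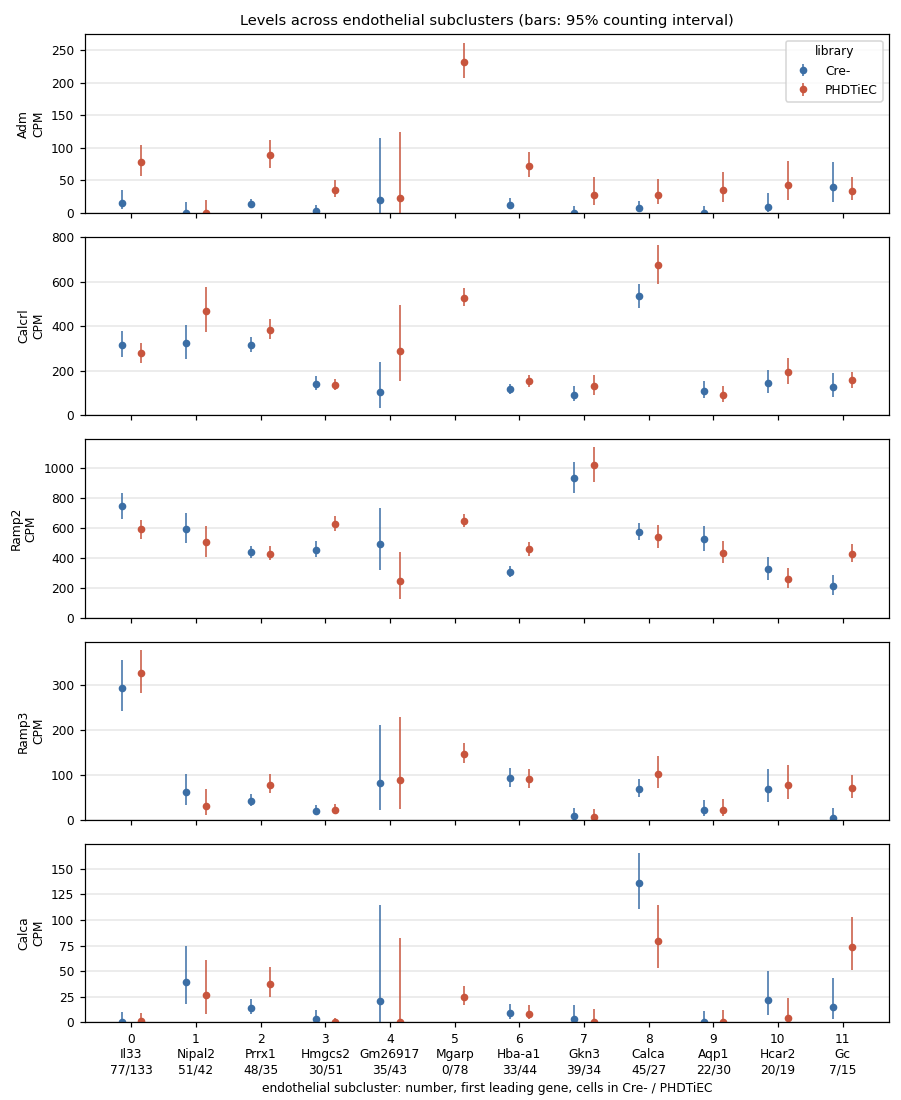
CPM of the members in the endothelial-like subclusters of both libraries, 1 mouse each. Subcluster 5 has barcodes of the library labelled PHDTiEC only and the highest Adm level, 232.7 CPM, while Calcrl is highest in subcluster 8 (535.7 and 673.7 CPM) and in subcluster 5 (529.1 CPM).

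Over the pooled endothelial-like barcodes of each library, Adm-positive ones were deeper and richer in HIF targets. Among barcodes labelled PHDTiEC the HIF list stood at 13061 CPM where Adm was found and 6144 CPM where it was not, at median depths of 16402 and 4974 UMIs. Among Cre- barcodes the levels were 5912 and 4960 CPM, at 27584 and 7129 UMIs. By class, Cre- mREC-like barcodes were alike, at 4631 CPM in the 7 with Adm and 4581 CPM without. The Cre- levels were 6701 and 5316 CPM in cREC-like barcodes and 5753 and 5158 CPM in cluster 23. Since a deeper barcode is more likely to show any UMI, the part of depth in this difference was not tested.

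Calcrl, the receptor itself, had most of its UMIs in endothelial-like cells and differed little between the libraries. It (ENSMUSG00000059588) lies on the reverse strand at chr2:84330626-84425411. Endothelial-like cells gave 1270 UMIs (251 CPM) and 1891 UMIs (303.5 CPM), a ratio of 0.27 (0.17 to 0.38), which is short of the fold rule. Calcrl was found in 66.6% and 67.7% of these barcodes, and in 23.7% and 24.3% after thinning. Endothelial-like cells held 59.8% and 65.3% of all kept Calcrl UMIs.

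By class the Calcrl ratios were all under 1 in size. Among mREC-like barcodes, with 571 and 1084 UMIs, it was 0.38 (0.24 to 0.53). Among cREC-like barcodes, with 191 and 265 UMIs, it was 0.28 (0.01 to 0.56), and for cluster 23, with 508 and 542, it was -0.05. Subcluster 5 held 34.6% of the endothelial-like Calcrl UMIs of the library labelled PHDTiEC at 529.1 CPM, in 93.6% of its barcodes. Without it the ratio was -0.02 (-0.14 to 0.09) over endothelial-like cells and -0.02 (-0.20 to 0.16) in mREC-like cells. In subcluster 8, led by Calca and by Rspo3, Calcrl was found in 97.8% and 100% of barcodes, and its levels there, 535.7 and 673.7 CPM, were the highest of the 12. Subcluster 7, led by Gkn3, had 92.5 and 130.05 CPM, and subcluster 9, led by Aqp1 and Slc14a1, had 111 and 92.3 CPM.

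Outside endothelium Calcrl was well above free RNA in pericyte-like and fibroblast-like cells. Pericyte-like cells had 104 and 92 UMIs (123.5 and 82.6 CPM), a ratio of -0.58 (-1.001 to -0.16). Fibroblast-like cells had 149 and 278 (76.6 and 66.2 CPM), a ratio of -0.21. Macrophage-like cells had 259 and 325 UMIs (12.6 and 13.5 CPM), beside free RNA levels of 11.4 and 15.3 CPM. Ramp2, at 25.3 and 31.4 CPM in free RNA, stood at only 1.12 and 0.91 CPM in macrophage-like cells. Free RNA was thus a small part of these barcodes, and its part in their Calcrl was not tested. TAL-like cells had 71 and 27 UMIs (5.93 and 2.06 CPM), below free RNA in both libraries, with a ratio of -1.52 (-2.22 to -0.86) and 31.0% and 18.5% of UMIs in 1 barcode. Calcrl and Calca were the 2 members past the fold rule downward in TAL-like cells, where 2.88% of genes were.

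Ramp2, the partner that makes the adrenomedullin receptor of vessels, was the most frequent RAMP of endothelium. It (ENSMUSG00000001240) lies on the forward strand at chr11:101246028-101259546 and overlaps Vps25 on the same strand, which gave only 11 and 18 UMIs in endothelial-like cells. Ramp2 gave 2497 UMIs (494 CPM) and 3420 UMIs (549 CPM) there, a ratio of 0.15 (0.08 to 0.23), in 85.5% and 82.8% of barcodes. Macrophage-like barcodes had it in 0.887% and 0.877%. Its ratio was 0.06 for mREC-like barcodes, 0.17 for cREC-like ones and 0.19 for cluster 23, so Ramp2 differed little in any endothelial-like class.

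Outside endothelium Ramp2 exceeded its free RNA levels of 25.3 and 31.4 CPM in fibroblast-like and injured PT-like cells, while PT-like cells, at 20.9 and 25.8 CPM, lay below them. Fibroblast-like cells had 179 and 198 UMIs (92.0 and 47.1 CPM), a ratio of -0.97 (-1.26 to -0.67), with Ramp2 in 48.8% and 37.0% of barcodes. Pericyte-like cells had 6 and 44 UMIs (7.12 and 39.5 CPM), a ratio of 2.47 (1.23 to 3.99), with 33.3% and 29.5% of UMIs in 1 barcode. Ramp2 and Ramp3 were the 2 members past the fold rule upward in pericyte-like cells, where 10.7% of genes were. The 10 endothelial markers summed to 119.9 and 312 CPM in pericyte-like cells and the 6 TAL markers to 680.4 and 1978 CPM, with none at 0, and their part was not tested. Injured PT-like cells had 394 and 315 UMIs (46.3 and 41.0 CPM).

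Ramp3, the partner that gives the other adrenomedullin receptor, was higher in endothelial-like cells under the PHDTiEC label but short of the fold rule. It (ENSMUSG00000041046) lies on the forward strand at chr11:6658521-6677475. It gave 342 UMIs (67.7 CPM) and 636 UMIs (102.1 CPM), a ratio of 0.59 (0.40 to 0.79), in 39.3% and 45.2% of barcodes. By class it was 0.87 (0.50 to 1.25) for mREC-like barcodes on 84 and 223 UMIs, 0.39 (0.12 to 0.67) for cREC-like ones on 184 and 275, and 0.76 (0.34 to 1.18) for cluster 23 on 74 and 138. Without subcluster 5 the mREC-like ratio was -0.18 (-0.69 to 0.32), a value that leaves out barcodes of 1 library only and so compares unlike sets of cells.

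TAL-like cells held the largest part of all Ramp3 UMIs, 43.0% and 39.6%. They gave 951 and 1233 UMIs (79.4 and 94.2 CPM), a ratio of 0.25 (0.12 to 0.37), in 58.3% and 64.4% of barcodes, while Calcrl there was below free RNA. Within endothelium the highest Ramp3 level was in subcluster 0, 293.5 and 326.4 CPM, and subcluster 7 had 8.95 and 7.03 CPM, where Ramp2 stood at 934 and 1019 CPM. Ramp3 and Ramp2 were thus unevenly spread between vessel subclusters. In intercalated cell-like barcodes with CD markers Ramp3 gave 87 and 187 UMIs (4.93 and 9.27 CPM), a ratio of 0.91 (0.54 to 1.29), and both levels lay below the free RNA levels of 14.9 and 19.9 CPM.

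Ramp1, the partner for CGRP, was a messenger of immune and mural cells and was low in endothelium. It (ENSMUSG00000034353) lies on the forward strand at chr1:91179822-91225196. T-like cells gave 743 and 974 UMIs (364 and 390.4 CPM) in 42.5% and 47.2% of barcodes. Macrophage-like cells gave 1948 and 2006 UMIs (94.5 and 83.1 CPM), a ratio of -0.18 (-0.28 to -0.09), and held 45.3% and 41.99% of all Ramp1 UMIs. Pericyte-like cells had 174 and 172 UMIs (206.6 and 154.4 CPM), a ratio of -0.42 (-0.73 to -0.11).

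Endothelial-like cells had 123 and 171 Ramp1 UMIs (24.3 and 27.4 CPM), below the free RNA levels of 31.7 and 28.6 CPM. Cluster 23, the class with mural markers, held 103 and 134 of these UMIs, at 46.6 and 54.9 CPM, above those levels. The mREC-like cells held 12 and 11, at 6.88 and 4.34 CPM. In cREC-like cells Ramp1 was past the fold rule on 8 and 26 UMIs, with a ratio of 1.51 (0.33 to 2.87) and levels of 7.29 and 20.8 CPM that are both below free RNA. The highest barcode held 25% and 23.1% of them. Macrophage markers were also higher in that class under the PHDTiEC label, as given above, and their part was not tested. Fibroblast-like cells had 70 and 220 UMIs (36.0 and 52.4 CPM), a ratio of 0.54.

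As shares of the RAMP UMIs of a class, Ramp2 led in endothelium, Ramp3 in the TAL and Ramp1 in immune and mural cells. Of 2962 and 4227 RAMP UMIs in endothelial-like cells, Ramp2 made up 84.3% and 80.9%. Ramp3 made up 11.5% and 15.05%, and Ramp1 4.15% and 4.05%. In mREC-like cells Ramp3 was 7.61% and 12.6%, and among cREC-like ones 26.98% and 29.6%. The order of the 3 partners in endothelial-like cells was the same in both libraries.

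In TAL-like cells Ramp3 made up 77.4% and 79.9%, and in T-like cells Ramp1 made up 90.5% and 89.7%. Pericyte-like cells differed between the libraries, with Ramp1 at 95.1% and 71.4% and Ramp2 at 3.28% and 18.3%. Fibroblast-like cells differed in the opposite direction, with Ramp1 at 20.6% and 36.4% and Ramp2 at 52.6% and 32.8%. In fibroblast-like cells the leading partner was thus Ramp2 in the Cre- library. Under the PHDTiEC label none led beyond counting error. The intervals of Ramp1 (32.6 to 40.4) and Ramp2 (29.0 to 36.7) overlapped there, and Ramp3 made up 30.8% (27.1 to 34.6).

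**Figure D5:**
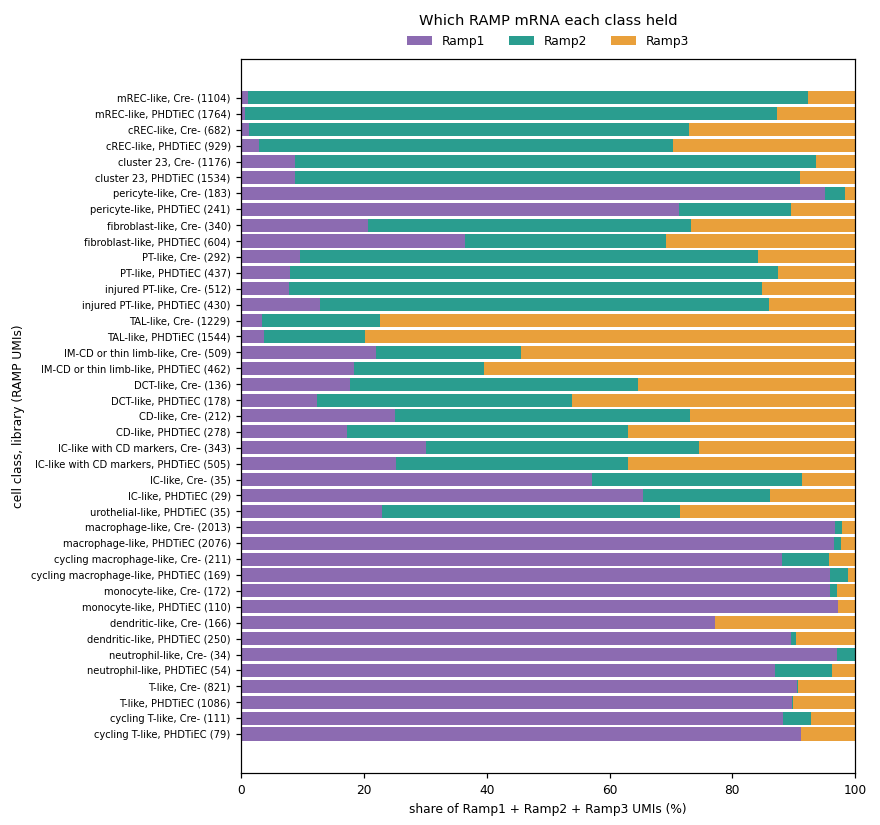
Share of Ramp1, Ramp2 and Ramp3 in the summed RAMP UMIs of a cell class (percent), for the Cre- library and the library labelled PHDTiEC, 1 mouse each. Ramp2 makes up 91.3% and 86.7% in mREC-like cells, Ramp3 77.4% and 79.9% in TAL-like cells and Ramp1 90.5% and 89.7% in T-like cells.

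Receptor and partner were often found in the same barcode. Among endothelial-like barcodes with Calcrl, Ramp2 was present in 94.1% and 88.7%, against 68.4% and 70.2% of those without Calcrl. Ramp3 was present in 49.4% and 53.1%, against 19.1% and 28.7%. Adm was present in 12.5% and in 42.1% (157 of 373), against 2.94% and 12.9% (23 of 178). Barcodes with Calcrl were deeper, with a Cre- median of 13387 UMIs against 2956, and the part of depth in these shares was not tested. In macrophage-like barcodes with Calcrl, Ramp1 was present in 45.4% and 51.3%, against 49.9% and 47.3% of those without, a lower share in one library and a higher share in the other.

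Calca, which encodes calcitonin and CGRP, was sparse and had its endothelial UMIs in few cells. It (ENSMUSG00000030669) lies on the reverse strand at chr7:114631478-114636357, and counts from its 3′ end were not split between the 2 products. It gave 435 and 452 UMIs over all kept barcodes. In mREC-like cells it gave 102 UMIs (58.4 CPM) and 64 UMIs (25.2 CPM), a ratio of -1.21 (-1.69 to -0.75), and it was found in 21 of 182 (11.5%) and 28 of 228 (12.3%) barcodes. The level was thus lower under the PHDTiEC label while the share of positive barcodes was not.

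Subcluster 8 held 100 of the 145 endothelial-like Calca UMIs of the Cre- library, but 28 of the 137 under the PHDTiEC label. Under that label subcluster 11, which carried PT markers, held 35, subcluster 5 held 31 and subcluster 2 held 29. Subcluster 8 had 45 and 27 barcodes, with 100 and 28 UMIs (136 and 79.3 CPM) and a ratio of -0.78. Calca was found in 17 of 45 (37.8%) and 8 of 27 (29.6%) of these barcodes. Cluster 23 went the other way, with 37 and 67 UMIs and a ratio of 0.71 (0.11 to 1.33), with 32.4% and 34.3% of UMIs in 1 barcode. Over all endothelial-like cells Calca gave 145 and 137 UMIs (28.7 and 21.99 CPM), a ratio of -0.38 (-0.73 to -0.04). In T-like cells it gave 93 and 110 UMIs (45.6 and 44.1 CPM) in 4.42% and 4.40% of barcodes, which did not differ beyond counting error. The 10 urothelial-like UMIs all lay in 1 barcode of the library labelled PHDTiEC.

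Over the 24 classes outside endothelium, 100 pairs of member and class had at least 10 UMIs, and 7 were past the fold rule upward and 7 downward, in 8 classes. Calcrl was past it upward in CD-like cells (4 and 25 UMIs, 2.91% of genes past it upward) and downward in intercalated cell-like barcodes with CD markers (46 and 24 UMIs, 2.9% downward). Adm was past it upward in IM-CD or thin limb-like cells (2.03% upward), where Calca was past it downward on 9 and 1 UMIs (2.96% downward). In cluster 4 Ramp3 was past it upward on 7 and 16 UMIs (4.36%) and Adm downward on 9 and 3 (5.5%).

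The remaining pairs were on few UMIs as well. Ramp2 and Calca were past it upward in urothelial-like cells (7.41%), with all UMIs of either gene in 1 barcode per library. Ramp2 (16 and 5 UMIs) and Ramp3 (9 and 2) were past it downward in cycling macrophage-like cells (4.12%). These pairs, with those of the TAL-like and pericyte-like classes above, make up all of them, and nothing is read from them.

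The wider pathway was a list of 56 genes, Calca among them, covering related ligands and receptors, peptide processing, cAMP signalling, receptor traffic and endothelial targets. Of its 55 other genes, 48 had at least 10 UMIs in endothelial-like cells, and 0 were past the fold rule upward and 1 downward, beside 3.44% and 3.25% of all genes. The median ratio of the 48 was 0.01, beside -0.012 over all genes tested, and the range -1.89 to 0.87. The one lower gene was Casr, the calcium-sensing receptor, on 12 and 4 UMIs, and is named after its values were seen. The Adm ratio of 3.13 lay above the range of these 48 genes, but Adm was itself chosen from these readouts.

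The highest ratio of the list was that of Pde4b, a cAMP-degrading phosphodiesterase, with 144 and 324 UMIs (28.5 and 52.0 CPM) and 0.87. Ackr3, an atypical receptor that can bind adrenomedullin, had 63 and 121 UMIs, a ratio of 0.64. The 8 endothelial targets had a median ratio of 0.03. The lowest was Cldn5 (claudin 5), with 3486 and 2900 UMIs and a ratio of -0.57. The highest was Gja1 (connexin 43), with 345 and 613 and 0.53. The junction genes Cdh5 and Tjp1 had ratios of 0.08 and -0.07. The related ligands were nearly absent, Adm2 with 1 and 8 UMIs, Calcb with 1 and 1 and Iapp with 0 and 0, and the calcitonin receptor Calcr had 1 and 0, all named after their values were seen.

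The same list was counted within classes, where the shares of all genes past the fold rule were larger too. In mREC-like cells, with 4.27% of all genes past it upward and 4.04% downward, 3 of 45 list genes were past it upward, Pde4b with 20 and 104 UMIs and a ratio of 1.84, Adcy3 with 2 and 10, and Cpe with 12 and 54. Downward there were 2, Mme and Adcy7. In cREC-like cells, with 4.39% and 7.81% of all genes, 1 of 46 was past it upward, Adcy4, an adenylyl cyclase, with 24 and 87 UMIs and a ratio of 1.67, and 7 downward, among them Pth1r, a receptor that tubules express (207 and 47 UMIs, -2.33), and Cldn5 (313 and 151, -1.24). In cluster 23, with 5.28% and 3.38% of all genes, there were 2 of 47 upward, Ackr3 and Mme, and 0 downward. Those with few UMIs are named after their values were seen.

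The genes whose pattern over classes was most like that of each member were ranked by Pearson correlation of log2(CPM + 1) over 54 points, the 27 classes of both libraries, among 15780 genes. The points share libraries and depth, so the values are descriptions. For Adm the closest were Dll1 (0.820), Rin1 (0.813) and Efnb2 (0.810). For Calcrl it was Lrrc32 (0.853), for Ramp2 Ecscr (0.927), for Ramp1 Asb2 (0.840), for Ramp3 Sema6d (0.764) and for Calca Ret (0.787). Ramp2 was the member with the closest partner, and Ramp3 the one with the least close.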

How the data were processed

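Raw UMI counts, deposited by the authors for 1 Cre- and 1 PHDTiEC library (10x 3′ chemistry), were made with Cell Ranger 4 on mm10 per the file headers and labels. The tables list all barcodes, cells and empty droplets alike. The members and gene lists were chosen with earlier results of these data known. Barcodes were kept at 500 to 100000 UMIs, at least 200 genes and at most 50% mitochondrial UMIs, which held 87.0% and 90.3% of 136004367 and 146758812 UMIs. Seurat 5.3.0 (R 4.3.3) clustered both libraries into 29 clusters, with the members left out of the variable genes, and clusters were named from marker lists as 27 classes. Doublets were kept, with an alternative that removed the highest Scrublet scores (scanpy 1.11.5). UMIs were summed per class and library, and intervals were computed with scipy 1.17.1 in Python 3.11.15. With 1 library per genotype no test between genotypes was run. The planned rule named members in classes where they have at least 20 UMIs over both libraries, and pathway genes with at least 100 UMIs in endothelial-like cells. Genes below these numbers are also named, as pairs past the fold rule or after their values were seen. The counting scripts were tested on simulated data. The authors' deposited counts entered every step as they stand, TMM factors (edgeR 4.0.16) serving as one alternative scaling. Ramp2 had no entry among the promoter windows, and protein sequences were not used here.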

Additional observations from a re-analysis of the deposited data

Results flagged for a closer look

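For each member, the classes with at least 50 UMIs included one where the ratio of the library labelled PHDTiEC to the Cre- library lay above 0 with its whole counting interval and one where it lay below. The difference between the classes was not tested, since each genotype is 1 library. Adm had a log2 ratio of 4.83 in mREC-like cells and -0.73 in injured PT-like cells, where its levels were below free RNA. Calcrl had 0.38 in mREC-like cells and -1.52 in TAL-like cells, where its level was below free RNA. Ramp1 had 0.54 in fibroblast-like cells and -0.75 in cycling T-like cells, and Ramp2 had 2.47 in pericyte-like cells and -0.97 in fibroblast-like cells. Ramp3 had 0.91 in intercalated cell-like barcodes with CD markers and -0.97 in dendritic-like cells, the levels of the first class being below free RNA and those of the second, 18.3 and 9.33 CPM, near or below its 14.9 and 19.9 CPM. Calca had 0.71 in cluster 23 and -1.21 in mREC-like cells.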

How the results depend on the processing

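Adm in endothelial-like cells stayed above 0 under each of 17 alternatives, from 2.38 to 3.74 on the log2 scale, as it did in mREC-like cells under 11 (3.08 to 5.16) and in cREC-like cells under 10 (2.05 to 3.12). The lower ends 2.38 and 3.08 came without subcluster 5, an alternative chosen after seeing the data that leaves out barcodes of 1 library only and so compares unlike sets of cells, and 3.74 came with the highest doublet scores removed. Calcrl was 0.14 when cells were gated on markers in place of clusters and reversed to -0.021 without subcluster 5. Ramp2 was 0.036 under the marker gate, 0.045 as a mean over cells and 0.055 with free RNA subtracted, and Ramp3 was 0.29 under the marker gate and 0.33 as a mean over cells. Thinned to 1000 UMIs, Adm was found in 0.771% and 9.13% of endothelial-like barcodes and Calcrl in 23.7% and 24.3%. Causes were not tested. No paired analysis was possible because each genotype is 1 library, and for the same reason no library could be left out. Depth limits Ramp1 in mREC-like and cREC-like cells, where levels were below free RNA. It also limits Calca in endothelium, where UMIs rested on few barcodes.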

Other observations

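Calca in T-like cells was found in 55 barcodes over both libraries, and these carried other genes at different rates, chosen after their values were seen and given as a description. Il1rl1, the receptor for interleukin 33, had a UMI in 34.5% of Calca-positive and 2.60% of the 1192 Calca-negative T-like barcodes. Areg, which encodes amphiregulin, had 47.3% and 8.98%, and Gata3, a lineage transcription factor, had 49.1% and 19.04%. Ramp1, the CGRP partner, had 63.6% and 44.2%, while Calcrl had 3.64% and 3.94%. The median depths were 3558 and 3176 UMIs.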
